A study of Mus musculus with 5 samples.

Results

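The cells described here are the recipient's own cells recovered from 2 tracheas after transplantation of airway basal cells, 1 trachea taken on day 40 and 1 on day 56. Cells were kept when their barcode held at least 500 mouse genes and under 20% mitochondrial unique molecular identifiers (UMIs, each a tag of 1 captured RNA molecule). Epithelial cells were those with at least 1 UMI of Epcam and none of Ptprc, and immune cells those with at least 3 UMIs of Ptprc, Laptm5 and Coro1a together. Cells that met both rules, 1 on day 40 and 5 on day 56, were left out of both sets. The epithelial gate then took 1047 cells from the earlier trachea and 774 from the later one, and the immune gate 220 and 402. Together these are 2443 of the 6602 cells kept over the study's 5 libraries.

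All mice were adult wild type of strain 129 X1/S1. The recipients of both days had received 2% polidocanol, a detergent that strips the airway lining, into the trachea, and 5 h later 6000000 basal cells made from mouse embryonic stem cells (iBCs) by the same route. After pronase digestion, live cells (Calcein Blue positive) were sorted into a GFP-negative library, called endogenous by the submitters and described here, and a GFP-positive library of donor-derived cells. A trachea with neither injury nor transplant gave the uninjured control, sorted on Calcein Blue alone. Each group was 1 library, and each day was 1 mouse, so day, mouse, dissection and library cannot be told apart. No test between days was possible, and every interval below is an exact 95% interval (Clopper-Pearson for shares, Poisson for UMI counts and their ratios) that covers counting error only, not the spread between mice.

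The tracheal lining is kept up by basal cells, which divide and give rise to secretory and ciliated cells. Secretory (club and goblet) cells release secretoglobins, mucins and antimicrobial proteins, and ciliated cells carry the mucus out of the lung. Dendritic cells, macrophages, T cells and B cells live in and under this lining, and their number and state shift after injury and with exposure to foreign antigen.

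The endogenous libraries were alike in depth. They held 17756037 UMIs in 1336 barcodes on day 40 and 17732266 UMIs in 1243 barcodes on day 56. The median epithelial cell had 12131 and 13340.5 UMIs and the median immune cell 8379.5 and 8512.5, with median mitochondrial shares between 4.43% and 5.46% in the 4 sets. No epithelial cell of either day held a UMI of EGFP, the donor label, which allows shares of cells with a UMI of up to 0.287% and 0.388% (3 cells of the total) and does not limit cells that carry it unseen. EGFP was at 78.6 and 67.3 CPM (UMIs scaled to an equal total per library) in the epithelial cells of the donor-derived libraries. The 2 endogenous libraries shared 1 barcode. A doublet caller marked 1.74% and 0.733% of the kept cells.

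Immune cells took up a larger part of the day-56 library. They were 16.6% (14.7 to 18.8) of kept cells on day 40 and 32.7% (30.1 to 35.4) on day 56, and epithelial cells were 79.1% (76.9 to 81.3) and 63.0% (60.3 to 65.7). The intervals of the 2 days do not overlap for either gate. The GFP-negative sort and the digestion set which cells reached the libraries, so these are shares of sorted cells and not of the tissue. The donor-derived libraries, sorted from the same 2 tracheas, held 12 and 2 immune cells. A further 55 and 47 endogenous cells fell in neither gate. Of these, 6 on day 40 and 20 on day 56 had a UMI of each of at least 3 fibroblast markers. By another measure, 30 and 20 had at least 3 UMIs of Krt8 and Krt18 together.

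Among the epithelial cells, the intervals of the main classes overlapped between days. Basal-like cells (Krt5, Trp63) were 42.9% (39.9 to 46.0) and 41.0% (37.5 to 44.5), ciliated-like cells (Foxj1) 19.96% (17.6 to 22.5) and 22.2% (19.3 to 25.3), and secretory-like cells 19.3% (16.9 to 21.8) and 16.9% (14.4 to 19.8). The difference in basal-like cells, day 56 minus day 40, was -1.93 percentage points here, -6.03 with coarser clusters and 9.40 with a stricter cell filter, so its size and sign were not settled. Among the rarer classes, only the intervals of gland-like cells did not overlap between days. Cycling cells (Mki67, Top2a) were 26 on day 40 and 7 on day 56, which is 2.48% (1.63 to 3.62) and 0.904% (0.364 to 1.85). Gland-like cells, led by Dmbt1, Ltf and Sox9, were 2 and 15 cells, or 0.191% (0.0231 to 0.688) and 1.94% (1.09 to 3.18). Tuft-like cells (Trpm5) were 17 and 14 cells, and neuroendocrine-like cells (Chga) 5 and 3.

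Within the basal-like class, a group of cells led by Cd109, Lmo1 and Tgfbi was found almost only on day 40, with 67 cells or 6.40% (4.99 to 8.06) of epithelial cells against 6 cells or 0.775% (0.285 to 1.68). It came from 1 mouse in 67 of its 73 cells, so a cell state and a feature of that library cannot be told apart. Outside the named classes, a cluster led by interferon-induced genes (Cxcl10, Gbp5, Iigp1) held 41 and 19 cells, or 3.92% (2.83 to 5.28) and 2.46% (1.48 to 3.81). The plot of shares by day gives all these values.

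Few genes set the epithelium of the 2 days apart. UMIs were summed over the cells of a day and scaled to CPM, and a gene was called apart at a 2-fold difference with 2 CPM added to both days, among genes of at least 20 CPM on average and 30 UMIs. Of 5563 genes, 18 (0.324%) were higher on day 56 and 10 (0.18%) higher on day 40. Those higher on day 56 included the inducible heat shock proteins Hspa1a and Hspa1b, the stress- and growth-factor-responsive Phlda1, the matricellular Ctgf, and the secreted defence proteins Scgb3a1, Lyz2 and Dmbt1. Those higher on day 40 included Clca1, a protein that goblet cells secrete with mucus, the interferon-induced Ifi27l2a and Cxcl10, and Krt4, a keratin of flattened and hillock cells.

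The Hspa1a and Hspa1b promoters are shown because these genes gave the 2 largest heat shock differences and lie side by side. They encode near-identical chaperones that refold damaged proteins and are switched on by heat shock factor. Sequences are from RefSeq (GRCm38.p6), the 250 bases before the start site at chr17:34972157-34972406 and chr17:34959239-34959488, both on the minus strand, written 5′ to 3′. Capitals mark the single match to the heat shock element core (GAANNTTC or TTCNNGAA, which together cover both strands), which lies 104 bases before the start in both genes.
Hspa1a: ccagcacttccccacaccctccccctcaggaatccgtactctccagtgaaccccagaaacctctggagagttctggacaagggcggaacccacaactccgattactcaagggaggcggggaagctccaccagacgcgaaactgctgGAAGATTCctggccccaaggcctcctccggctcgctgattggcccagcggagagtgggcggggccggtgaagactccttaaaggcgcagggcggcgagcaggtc
Hspa1b: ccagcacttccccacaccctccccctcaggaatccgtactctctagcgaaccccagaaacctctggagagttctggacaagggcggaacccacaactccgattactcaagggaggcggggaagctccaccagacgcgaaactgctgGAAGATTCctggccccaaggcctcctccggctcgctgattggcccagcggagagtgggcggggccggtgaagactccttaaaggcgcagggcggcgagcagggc
A match to this core was present in 12.8% of the 32851 mouse promoter windows of 250 bases, so it is a description and not a site. The 2 windows are identical at 247 of 250 bases (98.8%). The genes lie on chromosome 17 at 34969190 to 34972156 (Hspa1a) and 34956436 to 34959238 (Hspa1b), and reads may be split uncertainly between such close copies.

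Hspa1a was at 38.8 CPM (35.7 to 42.1) on day 40 and 168.6 CPM (161.6 to 175.8) on day 56, 4.35-fold higher (3.97 to 4.77). Hspa1b was at 50.2 CPM (46.7 to 53.9) and 168.2 CPM (161.2 to 175.4), 3.35-fold higher (3.08 to 3.65). A UMI of Hspa1a was present in 34.2% of epithelial cells on day 40 and 61.6% on day 56, and with every cell thinned to 5000 UMIs in 16.9% and 38.6% (34 and 8 shallower cells left out). The difference was spread over many cells, since no cell gave more than 1.97% of the day-56 UMIs of Hspa1a. All 24 measured heat shock and chaperone genes were on the side of day 56, 3 of them 2-fold or more (Hspa1a, Hspa1b and Dnaja1), with a median log2 difference of 0.17 against -0.002 over all genes. Genes of this kind also respond to the dissociation of tissue into single cells, and the part of the dissociation was not tested.

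Phlda1 was at 30.3 CPM (27.5 to 33.2) on day 40 and 111 CPM (106 to 117) on day 56, 3.68-fold higher (3.31 to 4.09), and was seen in 25.5% and 58.5% of cells. Ctgf, which YAP and TGF-beta signalling induce, was at 37.7 CPM (34.6 to 40.9) and 107 CPM (102 to 113), 2.85-fold higher (2.58 to 3.14). Amotl2, also a YAP-responsive gene, was at 11.9 and 29.7 CPM (2.49-fold, 2.08 to 2.99), and the secreted matrix protein Thbs1 at 23.4 and 53.9 CPM (2.30-fold, 2.02 to 2.62). The immediate early and dissociation genes, a list that holds Fos, Jun and their like, had 18 of 22 measured members on the side of day 56 with a median of 0.48, and 1 past 2-fold. That member was Klf2, at 18.6 and 45.9 CPM (2.47-fold, 2.14 to 2.85).

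Some abundant secreted defence proteins were higher on day 56 and another was lower. Scgb3a1, a secretoglobin of the upper airway, was at 7076 CPM on day 40 and 17399 CPM on day 56, 2.46-fold higher (2.44 to 2.48), and Lyz2, a lysozyme, at 2290 and 4998 CPM (2.18-fold, 2.15 to 2.21). Dmbt1, a mucosal scavenger receptor that is not in the list of these genes, was at 111 and 259 CPM (2.33-fold, 2.19 to 2.47). Bpifa1, a surfactant-like airway defence protein, was at 20041 CPM on day 40 and 10403 CPM on day 56, a log2 difference of -0.95 that did not reach 2-fold; it was named after its values were seen. Of the 16 measured secretoglobin and defence genes, 13 were on the side of day 56 and 2 were past 2-fold, while Scgb1a1 was at 103035 and 125786 CPM and Scgb3a2 at 18160 and 18776 CPM. A UMI of Scgb1a1, which immune cells do not make, was present in 96.4% and 98.0% of immune cells.

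Clca1 gave the largest difference toward day 40. It was at 87.0 CPM (82.4 to 91.8) on day 40 and 9.97 CPM (8.33 to 11.9) on day 56, 8.72-fold higher on day 40 (7.28 to 10.5), and was seen in 11.6% (9.68 to 13.7) and 5.17% (3.72 to 6.97) of epithelial cells. Clca1 is a target of the type 2 cytokines. Of the 7 measured members of a list of such targets, 1 was 2-fold higher on day 40 (Clca1) and 1 on day 56 (Alox15, a lipoxygenase, at 53.4 and 121 CPM), and the median was -0.01. Muc5ac, the gel-forming mucin of goblet cells, had a UMI in 6.30% (4.91 to 7.95) and 8.01% (6.20 to 10.2) of cells, so its intervals overlap.

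Other genes higher on day 40 belonged to the interferon response, to the sensory peptide Calcb, to flattened cells and to dividing cells. Ifi27l2a was at 219 CPM (211 to 226) and 97.3 CPM (92.0 to 103), 2.25-fold higher on day 40 (2.11 to 2.40). Cxcl10, a chemokine for T cells, was at 38.5 and 17.5 CPM, with 33.7% of the day-40 UMIs in 1 cell. Cells with a UMI of Cxcl10 were 3.15% (2.18 to 4.40) and 1.94% (1.09 to 3.18), which overlap, and with the same mix of classes its log2 difference went from -1.06 to -0.80, under 2-fold. That weighting counted all unnamed clusters as 1 class, so the share of the cluster led by Cxcl10 was not equalised. Ifi27l2a and Cxcl10 were the interferon genes past 2-fold, and the 33 measured members had a median of 0.06, with 20 on the side of day 56. Calcb was at 58.6 and 23.3 CPM (2.52-fold, 2.21 to 2.88) and Krt4 at 83.2 and 40.1 CPM (2.08-fold, 1.87 to 2.30). Cenpf, a kinetochore gene of dividing cells, was at 32.8 and 10.9 CPM, and its log2 difference of -1.43 became -0.31 with both days weighted to the same mix of classes.

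**Figure D1:**
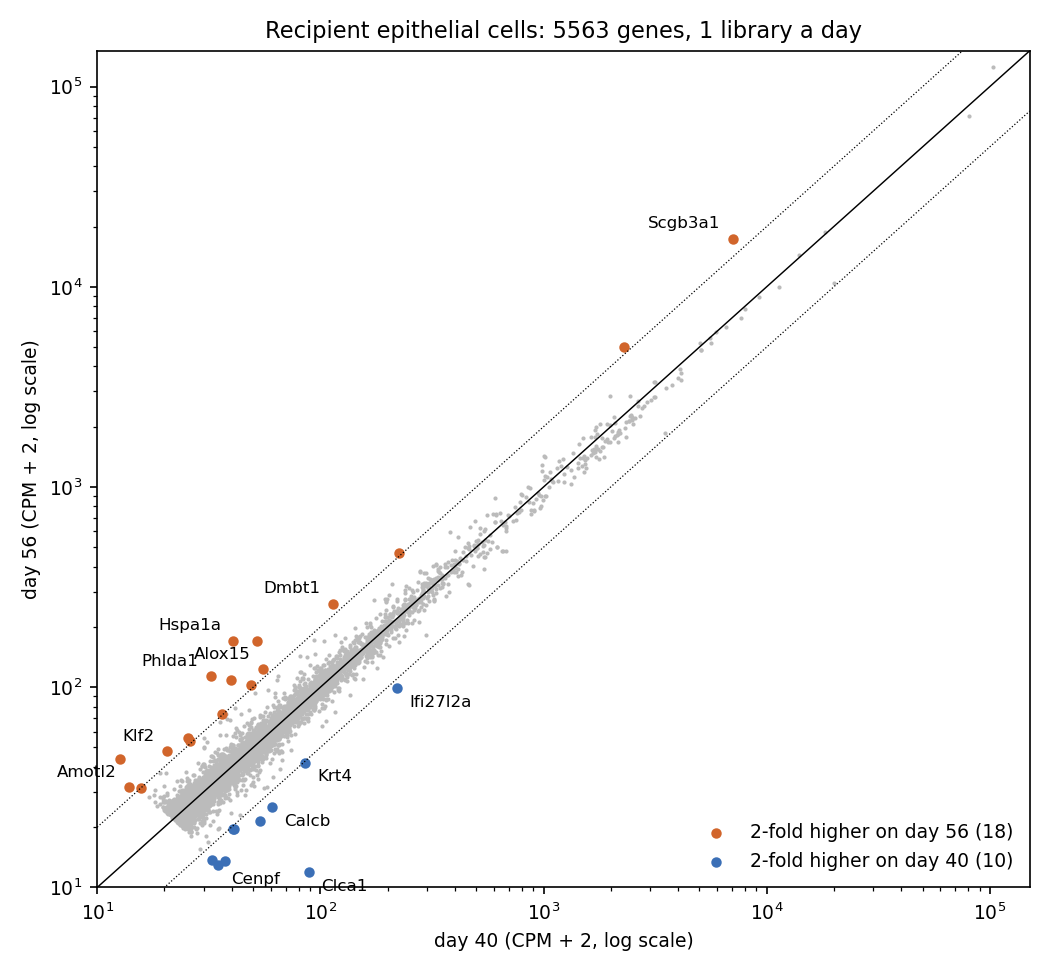
Level of 5563 genes in recipient epithelial cells on day 40 (x axis) and day 56 (y axis), as CPM + 2 on log scales, 1 library a day. The solid line marks equal levels and the dotted lines a 2-fold difference. Of the genes, 18 lie above the upper dotted line (orange) and 10 under the lower (blue), with Clca1 farthest down at 87.0 and 9.97 CPM.

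The donor-derived cells of the same tracheas and the uninjured control give the level of these genes outside the endogenous libraries. Hspa1a was at 18.3 and 70.9 CPM in donor-derived epithelium on days 40 and 56, and at 51.5 CPM in the control. Clca1 was at 57.0 and 4.58 CPM in donor-derived cells and 18.3 CPM in the control. In both populations the day-56 library had more Hspa1a and less Clca1 than the day-40 library, and the populations share the mouse and the dissection. In donor-derived epithelium, 14 of the 18 endogenous genes higher on day 56 and 9 of the 10 higher on day 40 passed the filters. The rest could not be called there. Of the 18 genes, 5 were 2-fold higher on day 56 in donor-derived epithelium too, which is 27.8% of that list and 5.75% of the 87 donor-derived genes higher on that day (1.49% of 5825 tested). These were Hspa1a, Hspa1b, Phlda1, Scgb3a1 and Gm26825, the last named after its values were seen. Another 2 went the opposite way. Of the 10 genes higher on day 40, 7 were higher on day 40 in donor-derived cells (70.0% of the list and 3.37% of the 208 donor-derived genes, themselves 3.57% of those tested), Clca1, Cxcl10, Upk3bl, Calcb, Wfdc18, Hist1h1b and Ifi27l2a, of which Wfdc18 and Hist1h1b were also named after their values were seen.

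Some genes separated the populations. Lyz2 was 2-fold higher on day 56 in endogenous epithelium, whereas in donor-derived cells it was at 888 and 220 CPM, lower on day 56. Dmbt1 was at 5.37 and 1.46 CPM in donor-derived cells against 200 CPM in the control. Scgb3a1 was at 14781 CPM in the control, between the endogenous levels of the 2 days but nearer that of day 56. Phlda1 and Ctgf were lowest in the control, at 17.1 and 16.8 CPM, and Cxcl10 had no UMI in its 598 epithelial cells.

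**Figure D2:**
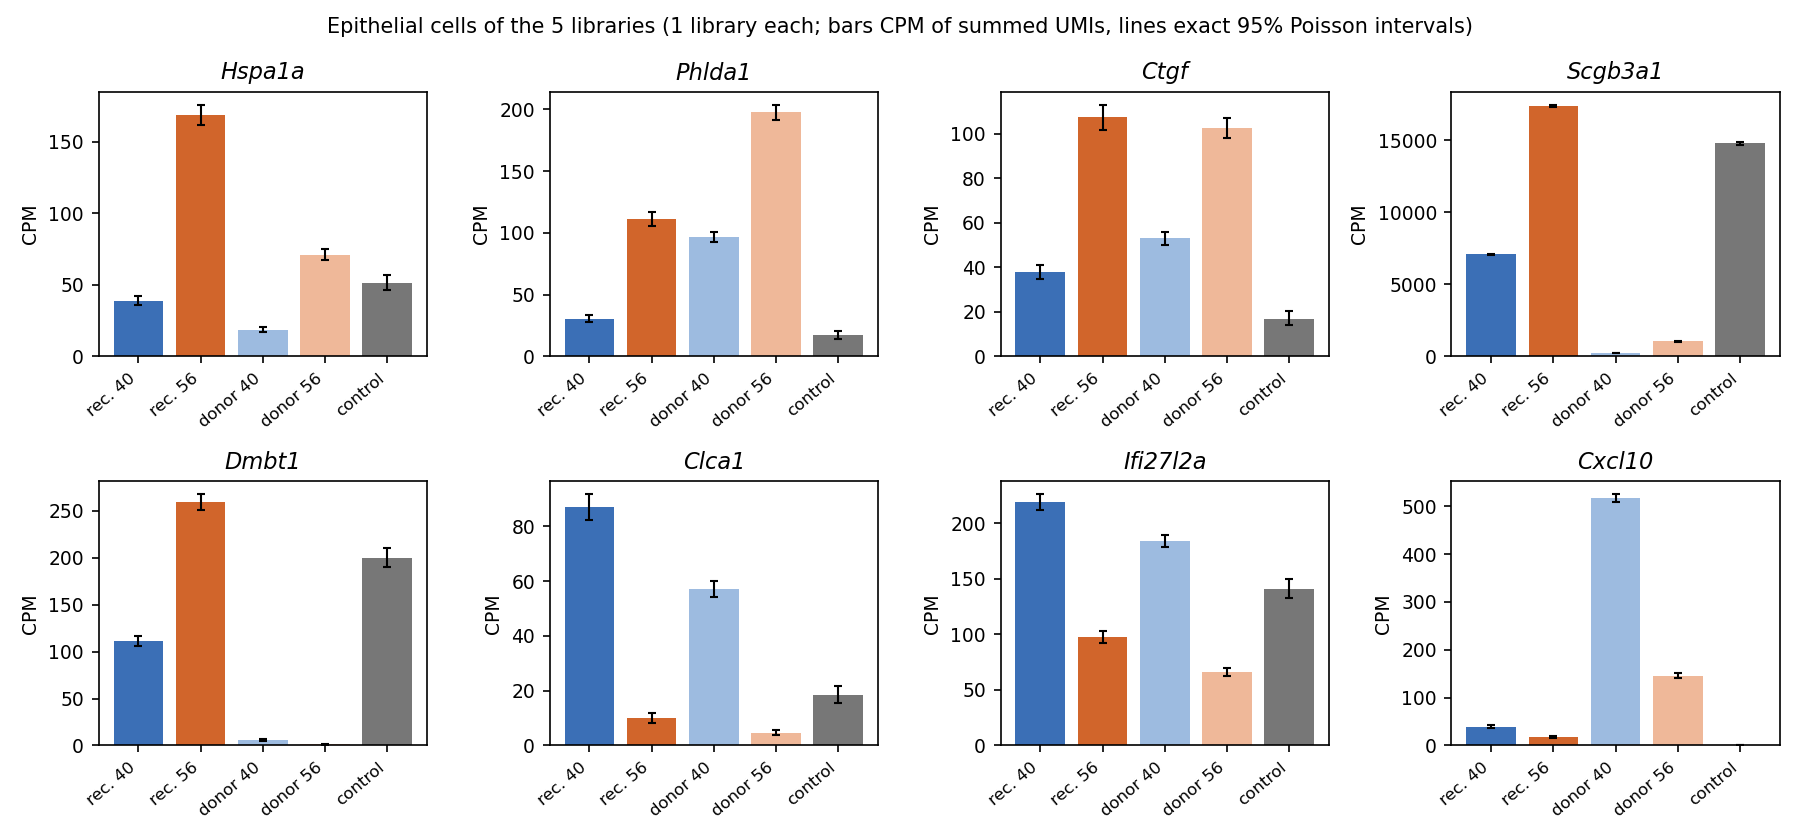
Level of 8 genes in the epithelial cells of the 5 libraries, in CPM of summed UMIs, with exact 95% Poisson intervals as lines (rec., recipient or endogenous cells; donor, donor-derived cells; numbers are days). Hspa1a is higher on day 56 than on day 40 in both populations, at 38.8 and 168.6 CPM in recipient cells and 18.3 and 70.9 CPM in donor cells, and Clca1 is lower on day 56 in both.

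In basal-like cells, 38 of 5608 genes (0.678%) were higher on day 56 and 10 (0.178%) on day 40. The genes higher on day 56 included immediate early genes. Egr1, a transcription factor induced within minutes of a stimulus, was at 79.6 CPM (71.9 to 87.8) and 179 CPM (166 to 193), 2.25-fold higher (1.99 to 2.56), and was seen in 34.7% and 74.5% of basal-like cells. Dusp1, a phosphatase that turns off MAP kinases, was at 91.6 and 235 CPM (2.57-fold, 2.29 to 2.88) and Klf6 at 69.3 and 157 CPM (2.26-fold, 1.97 to 2.59). In this list 5 of 23 measured members were past 2-fold toward day 56 and none toward day 40, with a median of 0.74 against 0.03 over all genes.

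Ctgf in basal-like cells was at 105 CPM (96.5 to 115) on day 40 and 331 CPM (313 to 350) on day 56, 3.14-fold higher (2.83 to 3.49). It was detected in 27.2% and 67.2% of these cells. The chaperone Hsph1 was at 26.7 and 80.9 CPM (3.03-fold, 2.46 to 3.74), Hspa1a at 48.2 and 140 CPM (2.91-fold, 2.49 to 3.40), and Krt14, a keratin of basal cells after injury, at 410 and 842 CPM (2.05-fold, 1.94 to 2.17). The other 12 measured basal markers did not differ 2-fold. The class was itself named by basal markers in clusters of both days together, so similar levels of such genes were partly set by the choice of cells. On the other side, Krt13, a hillock keratin, was at 79.8 CPM (72.1 to 88.0) and 14.3 CPM (10.7 to 18.7), 5.58-fold higher on day 40 (4.19 to 7.59), with 33.8% of its day-40 UMIs in 1 cell. Cd109 was at 78.6 and 34.8 CPM (2.26-fold, 1.85 to 2.78), and 151 of its 391 day-40 UMIs came from the Cd109 group described above.

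Which cells are called basal-like affects these calls. With coarser clusters 32 genes were apart, 19 of them among the 48, and with finer clusters 37 genes, 17 of them among the 48. The split toward day 56 was 79.2% of the 48 calls, 59.4% with coarser and 59.5% with finer clusters. Hbegf, a growth factor of wounded epithelium, was at 9.04 and 39.6 CPM (log2 1.91) but at -0.28 and -0.076 with coarser and finer clusters.

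MHC class II genes, which present antigen to CD4 T cells, were on the side of day 56 in all 6 measured members in basal-like cells, with a median of 0.85, and none was past 2-fold. The most abundant, the invariant chain Cd74, was at 966 CPM on day 40 and 1885 CPM on day 56, 1.95-fold higher (1.88 to 2.02), and seen in 62.6% and 94.0% of cells. All 18 measured MHC class I presentation genes were also on that side, with a median of 0.40. In ciliated-like cells Cd74 was at 724 and 962 CPM and in secretory-like cells at 577 and 663 CPM. Some transcripts of immune cells were more often seen in epithelial cells on day 56, and others were not. Igkc, which epithelial cells do not make, had a UMI in 0.0955% of epithelial cells on day 40 (1 cell) and in 7.49% on day 56 (58 cells). C1qa had one in 1 and 7 cells, and Cd3e in 3 and 0 cells. The part of such free RNA in the class II difference was not tested.

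In secretory-like cells, 21 of 3688 genes (0.569%) were higher on day 56 and 10 (0.271%) on day 40. Hspa1a was at 24.5 CPM (20.02 to 29.6) and 213 CPM (197 to 229), 8.69-fold higher on day 56 (7.08 to 10.8), and was seen in 29.2% and 82.4% of cells. Hspa1b was at 26.8 and 165 CPM (6.17-fold, 5.04 to 7.60). Of 22 measured heat shock genes, 5 were 2-fold higher on day 56 (Hspa1a, Hspa1b, Hsph1, Dnaja1 and Dnajb1) and none on day 40. Alox15, at 40.6 and 128 CPM (3.16-fold, 2.65 to 3.79), and Alox12e, at 10.2 and 30.9 CPM (3.05-fold, 2.12 to 4.43), are lipoxygenases that oxidise fatty acids. Scnn1g, a subunit of the epithelial sodium channel, was at 10.2 and 30.3 CPM (2.99-fold, 2.08 to 4.35).

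Clca1 in secretory-like cells was at 231 CPM (217 to 246) on day 40 and 26.3 CPM (21.1 to 32.3) on day 56, 8.82-fold higher on day 40 (7.10 to 11.1), and seen in 38.6% and 16.03% of cells. Of its 1003 and 90 UMIs, 957 and 86 were in the cluster led by Tff2, Clca1 and Muc5b. There Clca1 was at 444 and 41.5 CPM in 106 and 76 cells. As Clca1 is itself a leading gene of that cluster, its place there was partly set by how the clusters were made. The xenobiotic enzyme Fmo6 was at 69.2 and 21.6 CPM (3.21-fold, 2.48 to 4.19) and Ifi27l2a at 226 and 59.8 CPM (3.78-fold, 3.25 to 4.42). Retnla, a resistin-like secreted protein, was at 124 and 21.3 CPM in this class, but at 38.1 and 37.7 CPM over all epithelial cells. Cells with a UMI of Retnla were fewer on day 56, at 61 and 23 epithelial cells, 5.83% (4.49 to 7.42) and 2.97% (1.89 to 4.43). An unnamed cluster led by S100g and Alox15 held most of the Retnla UMIs on day 56, at 0.79 CPM on day 40 and 233 CPM on day 56.

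In ciliated-like cells, 16 of 6350 genes (0.252%) were higher on day 56 and 13 (0.205%) on day 40. The 26 measured motile cilium genes included none past 2-fold, with 12 on the side of day 56, 14 on that of day 40 and a median of -0.005. The class was itself named by ciliated markers in clusters of both days together. Similar levels of such genes were thus partly set by the choice of cells. Phlda1 was at 11.2 CPM (7.53 to 15.9) and 95.5 CPM (84.2 to 108), 8.56-fold higher on day 56 (5.85 to 12.9), and seen in 10.1% and 53.5% of cells. Calml3, a calmodulin-like protein, was at 111 and 403 CPM (3.65-fold, 3.20 to 4.16), and the adhesion receptor Cd44 at 10.1 and 39.4 CPM (3.92-fold, 2.55 to 6.23). Hspa1b was at 23.1 and 89.6 CPM (3.88-fold, 2.93 to 5.22), whereas Hspa1a was at 40.6 and 50.2 CPM. Unc79, part of a sodium leak channel complex, was at 99.4 and 36.4 CPM, 2.73-fold higher on day 40 (2.16 to 3.48).

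**Figure D3:**
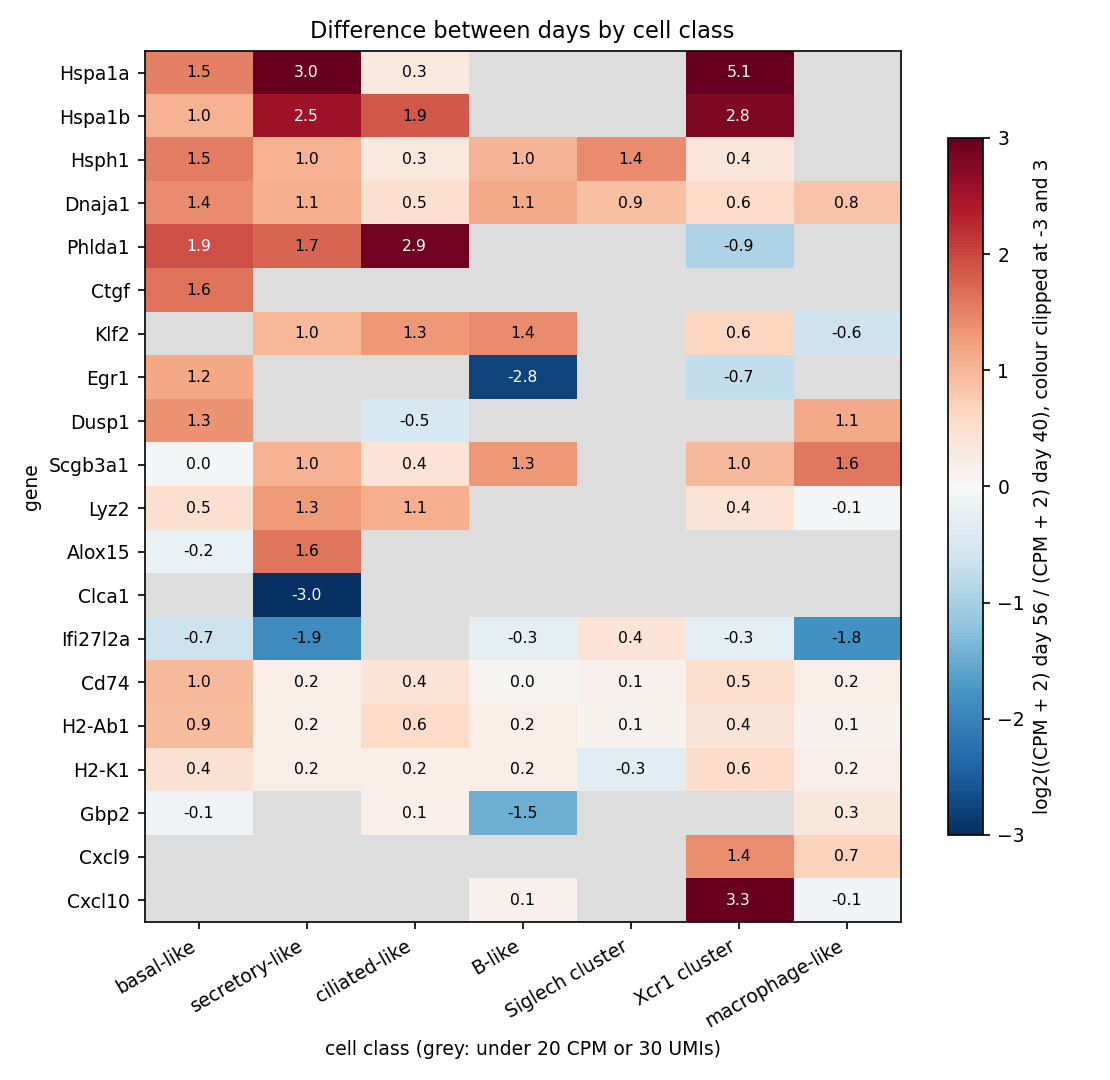
Log2 difference of day 56 over day 40, with 2 CPM added, for 20 genes (rows) in 7 classes or clusters of recipient cells (columns). Red is higher on day 56 and blue higher on day 40, and grey marks genes under 20 CPM on average or 30 UMIs. Phlda1 is 1.93 in basal-like, 1.75 in secretory-like and 2.89 in ciliated-like cells, and Clca1 is -3.05 in secretory-like cells.

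Among the immune cells, T cells held a larger share on day 56 and a dendritic-like cluster led by Siglech a smaller one. T-like clusters held 18 of 220 cells on day 40, 8.18% (4.92 to 12.6), and 75 of 402 on day 56, 18.7% (14.97 to 22.8). They leave out an unnamed cluster led by Ccl5, Nkg7 and Prf1. It held 13 and 33 cells, 5.91% (3.18 to 9.89) and 8.21% (5.72 to 11.3). All unnamed clusters together were 24.55% and 28.36% of immune cells. The T-like difference of 10.5 percentage points was 4.52 with each library clustered on its own. Counted by a UMI of Cd3d, Cd3e or Cd3g, subunits of the T cell receptor complex, such cells were 16.8% (12.1 to 22.4) and 31.8% (27.3 to 36.6), and with every cell thinned to 5000 UMIs (32 and 74 shallower cells left out) 10.6% (6.62 to 15.95) and 23.5% (19.0 to 28.4). Only 3 epithelial cells on day 40 and none on day 56 had a UMI of Cd3e. Cells with Cd3 and Cd8 were 6.36% (3.52 to 10.5) and 16.4% (12.9 to 20.4), cells with Cd3 and Cd4 6.36% (3.52 to 10.5) and 9.70% (6.99 to 13.02), and cells with Foxp3, the factor of regulatory T cells, 1.36% and 3.48%. Cells with Ncr1, a natural killer receptor, were 0 of 220 and 0 of 402, which allows shares of cells with a UMI of up to 1.36% and 0.746% and sets no limit on cells that express it.

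Dendritic-like cells were 36.4% (30 to 43.1) and 19.2% (15.4 to 23.4), but different clusters made up most of the class on each day. The cluster led by Siglech and Cox6a2, which are plasmacytoid dendritic cell genes, held 59 cells on day 40 and 36 on day 56, 26.8% (21.1 to 33.2) and 8.96% (6.35 to 12.2). Immune cells with a UMI of Siglech differed less, at 39.1% (32.6 to 45.9) and 27.1% (22.8 to 31.7). The cluster led by Xcr1 and Tlr3, genes of the dendritic cells that cross-present antigen to CD8 T cells, held 21 and 41 cells, 9.55% (6.01 to 14.2) and 10.2% (7.42 to 13.6). B-like cells were 18.2% (13.3 to 23.9) and 14.2% (10.9 to 17.98). Macrophage-like cells were 9.55% (6.01 to 14.2) and 12.4% (9.37 to 16.1), and counted by a UMI of C1qa, C1qb or C1qc 9.55% (6.01 to 14.2) and 16.7% (13.2 to 20.7). Mast cell Cpa3 had no UMI, and S100a8, a neutrophil gene, was in 1 and 2 cells.

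Over all immune cells, 54 of 5688 genes (0.949%) were higher on day 56 and 93 (1.64%) on day 40. The share of calls toward day 56 was 36.7% and became 47.8% with TMM scaling, a scaling that discounts extreme genes. With both days weighted to the same mix of classes 97 genes were apart, 75 of them among the 147. Without a cluster of 13 and 10 cells that held epithelial and immune transcripts together, an alternative chosen after seeing the data, 50 genes were higher on day 56 and 55 on day 40 (47.6% toward day 56), and 87 of the 147 calls were kept. Upb1 and Klk1b27, which are among the 10 leading genes of the Siglech cluster, were higher on day 40, at 110 and 43.1 CPM and at 60.8 and 22.4 CPM. Ctsl, a lysosomal protease, was at 323 CPM (299 to 348) and 106 CPM (95.8 to 116), 3.06-fold higher on day 40 (2.71 to 3.46). Sh3bgr was at 35.3 and 6.26 CPM (5.63-fold, 3.57 to 9.16) and Dntt, the polymerase that adds bases to rearranging receptor genes and is also made by plasmacytoid cells, at 32.9 and 11.1 CPM (2.97-fold, 2.02 to 4.41).

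Effector T cell genes were on the side of day 56. Ifng, the interferon that T cells release, was at 8.35 CPM (4.95 to 13.2) and 42.4 CPM (36.4 to 49.1), 5.08-fold higher (3.12 to 8.76), and cells with a UMI of it were 3.64% (1.58 to 7.04) and 11.7% (8.72 to 15.2), with 25.6% of the day-56 UMIs in 1 cell. Nkg7, of cytotoxic granules, was at 134 and 341 CPM (2.54-fold, 2.24 to 2.89) and Ccl4, a chemokine, at 59.4 and 221 CPM (3.73-fold, 3.10 to 4.52). Of 12 measured cytotoxic and effector genes, 5 were 2-fold higher on day 56 and 1 on day 40, with a median of 0.81 against -0.02 over all genes. With the same mix of classes 3 members of this list were apart and its median was 0.40. The exception was Gzma, a granzyme, with 163 UMIs on day 40 and 4 on day 56, 41.7% of the former in 1 cell. Of 13 measured resident memory and checkpoint genes, 3 were higher on day 56 (Lag3, Icos and Tnfrsf4). With the same mix of classes none of these 3 was past 2-fold and the median of the list went from 0.68 to 0.14. On the log2 scale Icos was then 0.34, from 1.22, Tnfrsf4 0.07, from 1.17, and Lag3 0.92, from 1.13. Ifng was 1.46, from 2.10, and Nkg7 0.86, from 1.33. The weighting counted all unnamed clusters as 1 class, with the cluster led by Ccl5, Nkg7 and Prf1 among them. The mix of clusters inside a class was therefore not equalised.

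Among the genes higher on day 56 was Prss2. It encodes a trypsinogen, a pancreatic digestive enzyme, and lies inside the T cell receptor beta locus on chromosome 6 (41521787 to 41525079 of GRCm38), between Trbv30 and Trbd1. It had 1 UMI on day 40 and 180 on day 56, in 1 and 35 immune cells. Of the 35, 33 had a UMI of Cd3 and 33 a UMI of Cd8. Prss2 was not confined to immune cells. On days 40 and 56 it had 12 and 1 UMIs in endogenous and 778 and 72 in donor-derived epithelial cells. Gm2663, which lies between Trbv1 and Trbv30 of the same locus (40995830 to 40999479), had 1 and 604 UMIs in 1 and 14 cells, and was added after its values were seen. Of the 604 UMIs, 178 were in 1 cell. One or the other was present in 1 of 37 Cd3 cells on day 40, 2.70% (0.068 to 14.2), and 47 of 128 on day 56, 36.7% (28.4 to 45.7), and no cell held both.

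**Figure D4:**
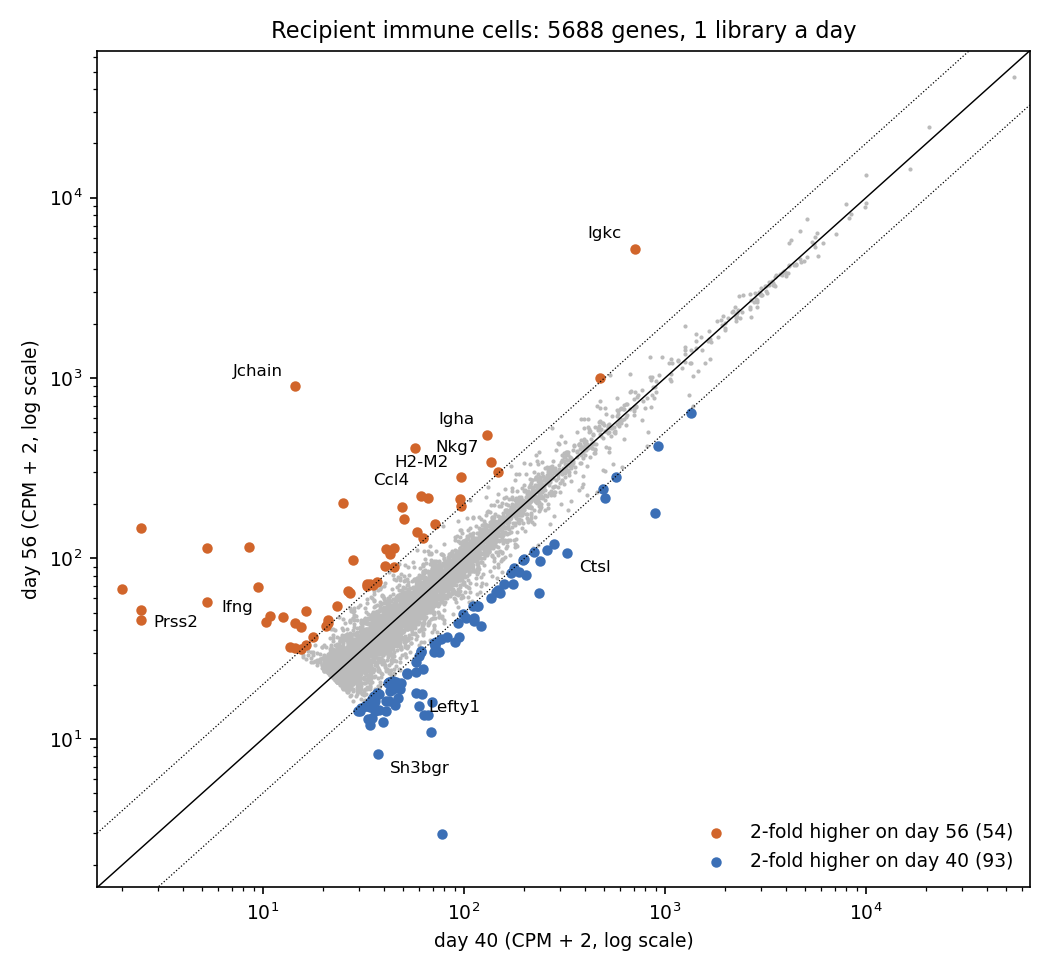
Level of 5688 genes in recipient immune cells on day 40 (x axis) and day 56 (y axis), as CPM + 2 on log scales, 1 library a day. The solid line marks equal levels and the dotted lines a 2-fold difference. Of the genes, 54 are higher on day 56 (orange) and 93 on day 40 (blue), with Igkc and Jchain far above the line and Ctsl and Sh3bgr under it.

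Antibody genes were far higher on day 56, and a few cells held most of their UMIs. Igkc, the kappa light chain, was at 704 CPM (669 to 741) and 5205 CPM (5136 to 5275) in immune cells, and Jchain, which joins secreted IgA and IgM, at 12.5 and 899 CPM. Cells with at least 10 UMIs of Jchain, as plasma cells have, were 2 on day 40 and 5 on day 56, and the 5 held 88.9% of the day-56 Igkc UMIs and 99.3% of the Jchain UMIs. The intervals of the share of immune cells with any UMI of Igkc overlap, at 32.7% (26.6 to 39.4) and 25.4% (21.2 to 29.9). In B-like cells the log2 difference of Igkc was 3.22 and became 0.46 without these cells, and that of Ighg2b was 3.38 and became -0.88.

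In B-like cells, of which there were 40 and 57, 72 of 3243 genes (2.22%) were higher on day 56 and 80 (2.47%) on day 40. With TMM scaling the share toward day 56 went from 47.4% to 65.1%. At this depth a gene at 20 CPM has 6.81 and 9.47 UMIs, so a 2-fold difference of such a gene can lie within counting error. Among genes with intervals away from equality, Apoe, a lipid carrier, was at 400 CPM (335 to 473) and 1628 CPM (1515 to 1747), 4.07-fold higher on day 56 (3.39 to 4.92). Apoe is also in the list of macrophage markers and was at 1054 and 997 CPM in epithelial cells. The part of free RNA from other cells in its difference was not tested. The interferon-induced GTPases Iigp1, at 132 and 35.9 CPM (3.68-fold, 2.07 to 6.87), and Gbp2, at 97.0 and 33.8 CPM (2.87-fold, 1.54 to 5.59), were higher on day 40. Of 23 measured interferon response genes 5 were 2-fold higher on day 40 and 2 on day 56, with a median of -0.43 against -0.06 over all genes.

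Over the dendritic-like class, 110 of 5295 genes (2.08%) were higher on day 56 and 172 (3.25%) on day 40. With TMM scaling the share toward day 56 went from 39.0% to 59.8%, and the median of all genes from -0.09 to 0.02. Since different clusters filled the class on each day, its clusters are given apart. In the Siglech cluster 32 of 3503 genes (0.914%) were higher on day 56 and 52 (1.48%) on day 40. Lag3, an inhibitory receptor that plasmacytoid cells also carry, was at 43.9 CPM (26.8 to 67.7) and 116 CPM (81.3 to 161), 2.65-fold higher on day 56 (1.49 to 4.83). The protease Adam19 was at 52.6 and 152 CPM (2.88-fold, 1.73 to 4.93). None of its 13 measured interferon response genes was past 2-fold.

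In the Xcr1 cluster, with 21 and 41 cells, 94 of 3424 genes (2.75%) were higher on day 56 and 60 (1.75%) on day 40, and with TMM scaling the share toward day 56 went from 61.0% to 72.5%. Hspa1a had 0 UMIs on day 40 and 41 on day 56, at least 6.49-fold higher against a floor of 3 counts in the day-40 cells. Cxcl9, a chemokine that interferon gamma induces and that draws T cells, was at 474 CPM (399 to 560) and 1251 CPM (1164 to 1343), 2.64-fold higher on day 56 (2.20 to 3.18). Igtp, another interferon-induced GTPase, had 2 and 33 UMIs (7.84-fold, 2.00 to 67.4) and Cxcl10 2 and 54 UMIs, 46.3% of the latter in 1 cell. Of 26 measured interferon response genes, 6 were 2-fold higher on day 56 and 3 on day 40. Plac8 was at 543 and 156 CPM, 3.49-fold higher on day 40 (2.69 to 4.54).

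The promoter of Cxcl10 is shown because the gene had more UMIs on day 56 in the Xcr1 cluster and on day 40 in the epithelium, where the 2-fold call was lost with the same mix of classes. It lies at chr5:92348890-92349139 on the minus strand (RefSeq, GRCm38.p6, the 250 bases before the start, 5′ to 3′). Capitals mark the single match to the core of the interferon-stimulated element (GAAA, any 2 bases, GAAA), searched on both strands.
Cxcl10: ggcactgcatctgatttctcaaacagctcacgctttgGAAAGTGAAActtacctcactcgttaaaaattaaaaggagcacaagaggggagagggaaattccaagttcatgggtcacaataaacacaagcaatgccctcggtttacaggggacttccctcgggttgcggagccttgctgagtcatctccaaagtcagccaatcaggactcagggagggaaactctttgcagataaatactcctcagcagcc
A match was present in 2.98% of the 32851 windows of that length. The window of Cxcl9 held none.

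Macrophage-like cells were few, 21 and 50, and 122 of 2532 genes (4.82%) were higher on day 56 and 45 (1.78%) on day 40. A gene at 20 CPM has 3.58 and 8.50 UMIs here, so the same holds more strongly. Ifi27l2a was at 983 CPM (843 to 1139) and 275 CPM (228 to 330), 3.57-fold higher on day 40 (2.81 to 4.55), as in the epithelium. The Fc receptor Fcgr4 had 3 and 56 UMIs (7.87-fold, 2.56 to 39.3) and was seen in 14.3% and 48.0% of the cells. Ccl8, a chemokine of tissue macrophages, had 1 and 206 UMIs. The cytokine Il1b was at 67.0 and 285 CPM (4.25-fold, 2.35 to 8.45).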

How the data were processed

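The authors deposited UMI counts per gene and barcode from droplet libraries (10x Chromium, per the labels) on features of GRCm38 and GRCh38 plus EGFP and mCherry. Cell Ranger, STARsolo and Seurat are named in the submitters' processing notes, without roles. Mouse features were used, and the control's 192 human barcodes were left out. Members, gene lists and cell type markers were chosen with earlier results of these data known. Clusters (scanpy 1.11.5, Leiden resolution 1, 2000 variable genes, 30 components) were made within each gate and named from markers; the rule for naming a cluster was settled after clusters were seen. Doublets were called (Scrublet) and kept, and their removal was an alternative. UMIs were summed per day, scaled to CPM and compared as fold differences with 2 CPM added, at a mean of 20 CPM or more and 30 UMIs or more, with no test. The calls were tested on simulated data, where unchanged genes of few UMIs were also called in macrophage-like cells. Named genes are the 10 largest differences per direction (6 per class) seen in 5% of cells or more (10% per class) with at most 20% of UMIs in 1 cell, up to 4 past 2-fold per list, and fixed markers. A list is described by its counts and median beside all genes. Alternatives changed scaling (edgeR 4.0.16), filters, gates, clusters and cells. Samples were 1 per group.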

Additional observations from a re-analysis of the deposited data

How the results depend on the processing

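No paired analysis was possible because each day had 1 library. The difference in the epithelial share (-16.1 points) became -13.8 with at least 2 UMIs of Epcam and -13.4 with thinned cells, and that in the immune share (16.1) became 12.5 with thinned cells. With coarser clusters, finer clusters, separate clustering, doublets left out and a stricter cell filter, the basal-like difference was -6.03, 0.63, -0.57, -4.36 and 9.40 points and the secretory-like one 0.013, -2.20, -0.28, -0.82 and -0.45. The ciliated-like one was 2.95 with the stricter filter. The T-like difference was 4.52 with separate clustering and 15.02 by marker UMIs, and the macrophage-like one 7.12 by marker UMIs. Genes apart numbered 13 (50 CPM or more), 84 (no filter) and 17 (10 CPM added) in epithelium and 72, 591, 86 and 97 (same mix) in immune cells. At 50 CPM or more there were 25 in basal-like, 17 in secretory-like, 12 in ciliated-like, 89 in B-like and 92 in dendritic-like cells, and 42 and 62 in the Siglech and Xcr1 clusters. These counts fall because fewer genes were tested. On the log2 scale, Hbegf was -0.28 (coarser) and -0.076 (finer), Psca 0.33 and Krt6a -0.21 (finer) in basal-like cells, Retnla 0.015 (coarser) and 0.092 (finer) in secretory-like cells, and Fabp5 -0.27 (finer) in B-like cells. Chosen after seeing the data, leaving out cells with 10 or more Jchain UMIs gave Ighg2b -0.88 in B-like cells, Jchain -0.95, Igkc -0.98 and Ighg2b -0.74 in dendritic-like cells, and Jchain -0.66 and Igkc -0.15 in the Siglech cluster, and leaving out the mixed cluster 9 gave Ccl20 -0.39 in immune cells. The cause of the other changes was not tested. Of 884 values of single genes under alternatives, 817 stayed within 0.5.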

Other observations

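Some immune cells carried Epcam at an epithelial level. In the cluster led by H2-M2 and Mcemp1 (19 and 50 cells) Epcam was at 1110 and 1005 CPM, against 588 and 527 CPM in epithelial cells, while Krt8 had 0 and 2 UMIs and Krt5 had none. The Xcr1 cluster had Epcam at 160 and 365 CPM with 0 and 1 UMIs of Krt8. A cluster of 13 and 10 cells held epithelial and immune transcripts together, with 208 and 155 UMIs of Krt8.

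Igha, the constant region of IgA, was present with almost no light chain Igkc in the same 2 clusters. The H2-M2 cluster had 62 and 196 UMIs of Igha beside 1 and 3 of Igkc, and the Xcr1 cluster 21 and 69 beside 0 and 4. B-like cells had 181 and 1626 UMIs of Igha beside 1297 and 16827 of Igkc.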
